A study of Mus musculus with 12 samples.

Results

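Chemokines are small secreted or membrane-bound proteins that guide leukocytes, and 10 chemokine ligands were followed here in the CD45-negative cells of mouse lung tumors: *Cxcl1*, *Cxcl2*, *Cxcl5*, *Cxcl12*, *Cxcl14*, *Cxcl15*, *Cxcl16*, *Ccl2*, *Ccl20* and *Cx3cl1*. They were taken by gene symbol from the count table, in which they are 10 of 39017 listed genes, and all 10 passed the filter on low counts, as did 16527 genes in all. RNA was sequenced from 12 tumors of 9 mice, 3 tumors in each of 4 groups. Every mouse was C57BL/6 with the alleles K-rasLSL-G12D/WT, p53Fl/Fl and CCSP-rtTA, and received 6000 viral units of Lenti.TRE-PPARaD13_PGK-Cre in the airways, so that Cre started the tumors and the reverse transactivator, driven by a club cell promoter, could switch on the PPARαΔ13 transgene under doxycycline. KP tumors (Slc2a1 wt/wt, regular diet) and KP-PPARαΔ13 tumors (labelled KP_PPARaDN, the same genotype with 625 mg/kg doxycycline in the diet for 15 days) formed one pair of groups. KPG1 tumors (Glut1Fl/Fl, regular diet) and KPG1-PPARαΔ13 tumors (Glut1Fl/Fl, doxycycline diet) formed the other pair, and all were collected 26 weeks after initiation. No group received doxycycline without the vector, so the effects of the diet and of the transgene cannot be told apart. The mouse was read from a number in the labels, which gives 2 mice for KP, 3 for KP-PPARαΔ13, 2 for KPG1 and 2 for KPG1-PPARαΔ13. KP replicates 1 and 2 shared a mouse, as did KPG1 replicates 1 and 2 and KPG1-PPARαΔ13 replicates 1 and 3. KP tumors came from female mice only and KPG1 tumors from male mice only. Sex and genotype therefore cannot be told apart on the regular diet. The doxycycline groups were mixed, and males gave 2 tumors of KP-PPARαΔ13 but only 1 of KPG1-PPARαΔ13. Sex and diet were thus partly mixed within each genotype. Male tumors were more frequent on doxycycline in the wild-type genotype and less frequent in the floxed genotype.

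Chemokines act through G protein-coupled receptors on the responding cells. Cxcl1, Cxcl2 and Cxcl5 carry the motif that binds Cxcr2 and draw neutrophils, Cxcl15 (lungkine) is a mouse ligand made by lung epithelium, Cxcl12 holds cells through Cxcr4, and Ccl2 and Ccl20 recruit monocytes through Ccr2 and lymphoid and dendritic cells through Ccr6. Cxcl16 and Cx3cl1 are made as membrane proteins that proteases release. Several of these genes are classical targets of NF-κB, which inflammatory cytokines such as Tnf and Il1b switch on.

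The neutrophil-attracting members *Cxcl5*, *Cxcl15*, *Cxcl1* and *Cxcl2* lie together on chromosome 5, in this order on the plus strand, within 146.6 kb of mm10 (chr5:90759360-90905938). RefSeq promoter sequences, from 250 bases before to 50 after the start, were on hand for 7 of the 10 members, in build GRCm38.p6, which shares its primary coordinates with mm10. Those of *Cxcl1*, *Cxcl2* and *Ccl20* are printed because they were the 3 of 7 that held the letters searched for as a core of NF-κB sites, GGAAANNCC on either strand (GGNNTTTCC on the other), and that of *Cxcl15* because it was the most abundant member. Capitals mark the matches, and all 4 are written 5′ to 3′ on the plus strand, from chr5:90890995-90891294 for *Cxcl1*, chr5:90903649-90903948 for *Cxcl2*, chr1:83116516-83116815 for *Ccl20* and chr5:90794284-90794583 for *Cxcl15*.
Cxcl1: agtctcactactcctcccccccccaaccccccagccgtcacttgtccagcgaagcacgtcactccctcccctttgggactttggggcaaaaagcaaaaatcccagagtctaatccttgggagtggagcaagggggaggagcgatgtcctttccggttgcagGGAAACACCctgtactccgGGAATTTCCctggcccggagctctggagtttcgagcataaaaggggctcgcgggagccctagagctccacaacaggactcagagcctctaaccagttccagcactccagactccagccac
Cxcl2: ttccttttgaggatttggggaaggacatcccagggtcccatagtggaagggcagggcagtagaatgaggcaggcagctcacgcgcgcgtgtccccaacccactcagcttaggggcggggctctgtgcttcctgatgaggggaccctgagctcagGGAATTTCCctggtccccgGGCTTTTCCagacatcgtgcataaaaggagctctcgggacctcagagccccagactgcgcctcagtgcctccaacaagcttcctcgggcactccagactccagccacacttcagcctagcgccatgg
Ccl20: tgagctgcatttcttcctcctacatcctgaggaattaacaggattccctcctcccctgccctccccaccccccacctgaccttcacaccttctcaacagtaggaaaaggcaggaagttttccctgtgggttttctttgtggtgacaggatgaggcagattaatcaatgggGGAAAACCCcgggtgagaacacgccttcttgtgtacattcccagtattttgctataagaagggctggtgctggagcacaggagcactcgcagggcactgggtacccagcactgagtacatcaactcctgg
Cxcl15: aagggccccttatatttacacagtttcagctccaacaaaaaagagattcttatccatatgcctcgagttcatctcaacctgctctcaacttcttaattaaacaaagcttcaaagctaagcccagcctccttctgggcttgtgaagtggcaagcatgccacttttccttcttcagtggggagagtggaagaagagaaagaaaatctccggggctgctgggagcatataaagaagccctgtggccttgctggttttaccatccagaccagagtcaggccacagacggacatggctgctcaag
The core occurred in 5.82% of 32851 promoters of the same length. In *Cxcl1* it was found at bases 162 to 170 and 181 to 189 of the window, in *Cxcl2* at bases 155 to 163 and 174 to 182, and in *Ccl20* at bases 171 to 179. One of the matches had the same letters, GGAATTTCC, in *Cxcl1* and *Cxcl2*. The longest run that these 2 windows shared was 20 bases, gcactccagactccagccac, within the 50 bases after the start of transcription. In *Cxcl1* it ends at the edge of the window, so the shared run could be longer. TATAAA stood 27 bases before the start of *Cxcl15* and 6 before that of *Cx3cl1*, against 13.6% of all promoters with this motif on either strand. The half-site of nuclear receptors, AGGTCA or TGACCT, was found in *Cxcl14* and *Ccl20*, against 16.3% of all promoters. TGANTCA, the motif of AP-1, was in 0 of the 7 windows and in 7.81% of all. A match is a string of letters and not evidence of binding.

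Total counts were 25263794 to 32654223 per tumor. The alveolar type 2 marker *Sftpc*, a surfactant gene, stood at 5540 to 29950 CPM (counts per 1000000 of a TMM-scaled library) in the 12 tumors, while *Ptprc*, the gene of CD45, was at 1.88 to 31.5 CPM, so leukocyte RNA was low but not absent. *Ppara* was at 2.71, 64.6 and 246.1 CPM in KP-PPARαΔ13 replicates 1, 2 and 3, at 8.90 to 19.2 CPM in KPG1-PPARαΔ13 and at 7.24 to 15.7 CPM on the regular diet. The library labelled KP-PPARαΔ13 replicate 1 was thus the lowest of all for *Ppara*, and the log2 fold changes of single genes that use it are also given without it. KPG1-PPARαΔ13 overlapped the regular diet for *Ppara*, and only KP-PPARαΔ13 replicates 2 and 3 lay far above it. Whether the transgene was induced in the other doxycycline tumors was not tested. *Slc2a1* counts over the whole gene were 35.3 to 57.7 CPM in KP, 108.1 to 152.5 in KP-PPARαΔ13, 30.2 to 63.9 in KPG1 and 23.7 to 54.5 in KPG1-PPARαΔ13, so that on the regular diet they did not separate floxed from wild-type tumors, and groups are named by their labels throughout.

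*Cxcl15* was the most abundant member by far. Per length it averaged 1131 FPKM ± 622.9 (SD, n = 12 tumors), where FPKM is the CPM after TMM scaling divided by the exon length in kilobases. *Cx3cl1* followed with 20.3 ± 8.53 FPKM, *Cxcl5* with 17.4 ± 26.2 and *Cxcl16* with 10.9 ± 4.29. *Cxcl1* (5.44 ± 5.07), *Cxcl2* (2.42 ± 2.59), *Cxcl12* (1.75 ± 1.54), *Cxcl14* (1.53 ± 1.04) and *Ccl20* (1.4 ± 1.23) were lower, and *Ccl2* was the lowest at 0.366 ± 0.257 FPKM. Neighbours in this order were apart in 12 of 12 tumors for *Cxcl15* over *Cx3cl1* and for *Cxcl16* over *Cxcl1* only. The other neighbours changed places in 1 or more tumors. *Cxcl1* exceeded *Cxcl2* in 11 tumors, *Cx3cl1* exceeded *Cxcl5* in 10, and *Cxcl5* exceeded *Cxcl16*, *Cxcl2* exceeded *Cxcl12* and *Cxcl12* exceeded *Cxcl14* in only 7 each. The plot of level by gene shows these ranges.

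**Figure D1:**
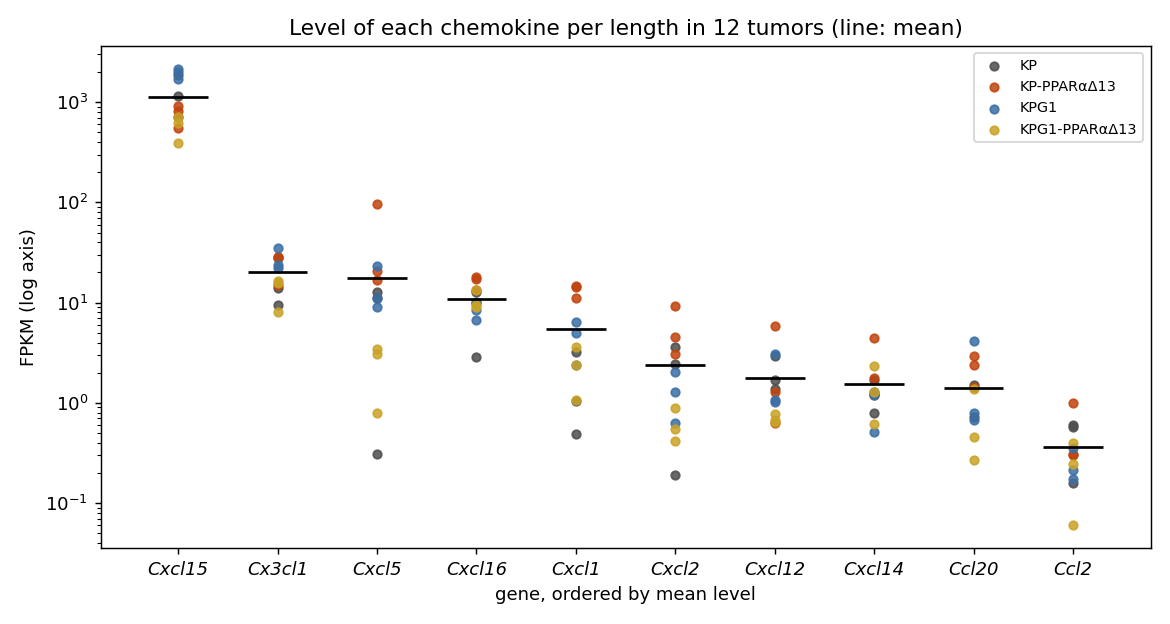
FPKM (CPM after TMM scaling per kilobase of exon, log axis) of each chemokine in the 12 tumors, 1 point per tumor colored by group, with genes ordered by their mean (black line). Cxcl15 lies above all other members in every tumor; Ccl20 was at 0 in KP replicate 2, which a log axis cannot show.

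Among the neutrophil-attracting ligands, *Cxcl1* had the most distinct group. It was at 0.924, 1.94 and 5.99 CPM in KP replicates 1 to 3 and at 26.6, 20.7 and 27.4 CPM in KP-PPARαΔ13. KPG1 tumors held 11.9, 9.26 and 4.53 CPM and KPG1-PPARαΔ13 tumors 6.72, 1.98 and 4.46 CPM. All 3 KP-PPARαΔ13 tumors were above the 9 others, which overlapped from group to group. The log2 fold change of KP-PPARαΔ13 over KP was 3.08 ± 0.675 (SE, edgeR, adjusted p = 0.256), or 4.11 without KP replicate 3 and 2.65 without KP replicate 1. KPG1-PPARαΔ13 was lower than KP-PPARαΔ13, with a log2 fold change of -2.50 ± 0.658 (edgeR, adjusted p = 0.462). The 2 diet effects differed by -4.04 ± 0.917 log2 units (edgeR interaction, adjusted p = 0.33). None of these passed the adjusted threshold with edgeR, whereas DESeq2 called all 3, at adjusted p = 0.000429, 0.0109 and 0.00153. *Cxcl1* was also higher in KPG1 than in KP by 1.54 ± 0.641 (edgeR, adjusted p = 0.787), with overlapping tumors, or by 2.58 without KP replicate 3 and 1.11 without KP replicate 1, and it was higher on doxycycline averaged over both genotypes, with a log2 fold change of 1.06 ± 0.447 (edgeR, adjusted p = 0.457). Without KP-PPARαΔ13 replicate 1, the log2 fold change was 3.03 over KP, -2.45 for KPG1-PPARαΔ13 over KP-PPARαΔ13, -3.99 for the difference of the diet effects and 1.03 for doxycycline over both genotypes.

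*Cxcl2*, its neighbour on chromosome 5, was at 7.50, 0.394 and 5.05 CPM in KP, 9.39, 6.36 and 19.3 in KP-PPARαΔ13, 2.64, 4.2 and 1.29 in KPG1 and 1.13, 1.82 and 0.862 in KPG1-PPARαΔ13. On doxycycline the floxed tumors were all below the wild-type tumors, while on the regular diet the ranges overlapped. KPG1-PPARαΔ13 was lower than KP-PPARαΔ13, with a log2 fold change of -3.20 ± 0.877 (edgeR, adjusted p = 0.462; DESeq2 adjusted p = 0.0106). Averaged over the diets, floxed tumors were lower, with a log2 fold change of -1.93 ± 0.591 (edgeR, adjusted p = 0.976). These values were -3.33 and -2.00 without KP-PPARαΔ13 replicate 1.

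*Cxcl5*, another Cxcr2 ligand, spanned the widest range of the members with a count in every tumor. It stood at 20.7, 0.576 and 23.7 CPM in KP and at 181.3, 31.4 and 38.2 CPM in KP-PPARαΔ13. In KPG1 it was 16.9, 42.9 and 20.6 CPM, and in KPG1-PPARαΔ13 1.47, 6.5 and 5.79 CPM. The doxycycline tumors were all above the regular-diet tumors in the wild-type genotype and all below them in the floxed genotype. The log2 fold change was 2.48 ± 1.06 in the former (edgeR, adjusted p = 0.413) and -2.55 ± 1.07 in the latter (edgeR, adjusted p = 0.44). The first value was 1.22 without KP-PPARαΔ13 replicate 1, the tumor at 181.3 CPM. The difference between the 2 effects was -5.03 ± 1.51 (edgeR interaction, adjusted p = 0.34; DESeq2 adjusted p = 0.0173), and -3.76 without that tumor. KPG1-PPARαΔ13 was lower than KP-PPARαΔ13, with a log2 fold change of -4.19 ± 1.15 (edgeR, adjusted p = 0.462; DESeq2 adjusted p = 0.00306), and -2.92 without that tumor. Averaged over diets, the floxed tumors were lower, with a log2 fold change of -1.67 ± 0.735 (edgeR, adjusted p = 0.976), or -1.04 without it.

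*Cxcl15* behaved in another way. It was at 2456, 1509 and 3966 CPM in KP, 1738, 1181 and 1952 in KP-PPARαΔ13, 4214, 3613 and 4583 in KPG1 and 832.3, 1328 and 1503 in KPG1-PPARαΔ13. Every KPG1 tumor was above every KPG1-PPARαΔ13 tumor, and the ranges overlapped in the wild-type genotype. The log2 fold change in the floxed genotype was -1.76 ± 0.376 (edgeR, adjusted p = 0.42; DESeq2 adjusted p = 0.00131). Over both genotypes doxycycline tumors were lower, with a log2 fold change of -1.23 ± 0.262 (edgeR, adjusted p = 0.183; DESeq2 adjusted p = 0.000908), and the difference between the genotypes was -1.06 ± 0.518 (edgeR, adjusted p = 0.448). Without KP-PPARαΔ13 replicate 1, the former was -1.26 and the latter -1.01.

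**Figure D2:**
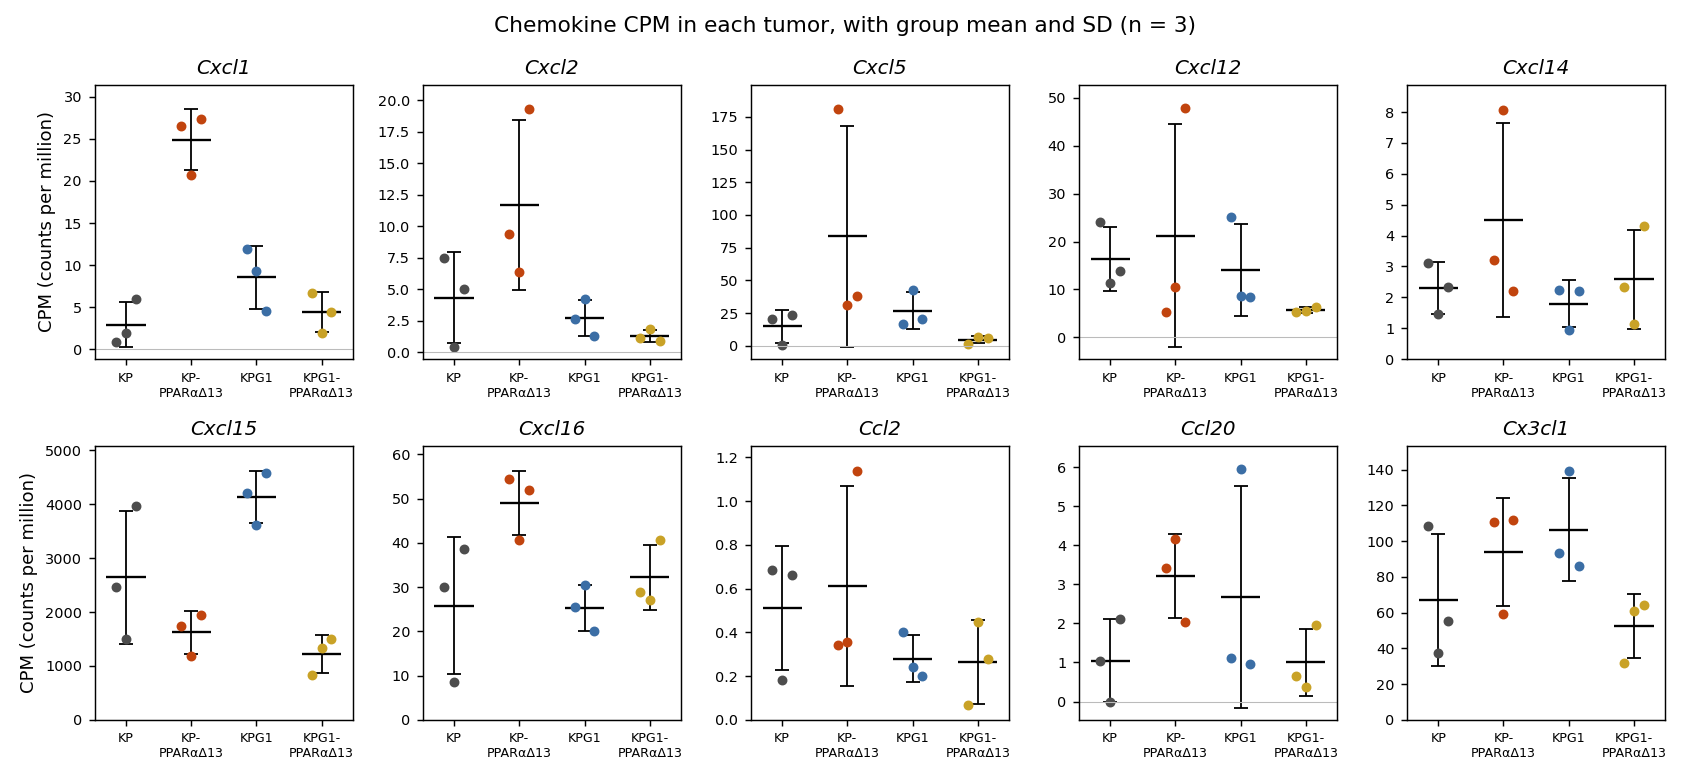
CPM of each chemokine (linear axes, 1 panel per gene) in the 3 tumors of each group, with the group mean and SD. Cxcl1 is at 20.7 to 27.4 CPM in KP-PPARαΔ13 and below 12 CPM elsewhere, and Cxcl15 is at 3613 to 4583 CPM in KPG1 and 832.3 to 1503 CPM in KPG1-PPARαΔ13.

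*Cxcl12*, the ligand of Cxcr4 and Ackr3, was at 24.03, 11.3 and 13.9 CPM in KP, 5.21, 10.6 and 47.9 in KP-PPARαΔ13, 25.04, 8.64 and 8.43 in KPG1 and 5.22, 5.47 and 6.31 in KPG1-PPARαΔ13. Single tumors set the group means, since KP-PPARαΔ13 held both the lowest and the highest tumor. KPG1-PPARαΔ13 was below KPG1 without overlap, with a log2 fold change of -1.31 ± 0.713 (edgeR, adjusted p = 0.531), but -0.59 without KPG1 replicate 1. Against KP-PPARαΔ13 it was lower, with a log2 fold change of -1.90 ± 0.724 (edgeR, adjusted p = 0.492), but -0.48 without KP-PPARαΔ13 replicate 3 and -2.36 without its replicate 1. *Cxcl14*, a chemokine of epithelium and fibroblasts, ranged from 0.929 CPM in KPG1 replicate 2 to 8.07 CPM in KP-PPARαΔ13 replicate 2, and its 4 groups overlapped throughout.

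Of the membrane-anchored ligands, *Cxcl16*, which binds Cxcr6, was at 30.1, 8.58 and 38.7 CPM in KP, 54.4, 40.6 and 51.9 in KP-PPARαΔ13, 25.4, 30.4 and 20.1 in KPG1 and 28.9, 27.1 and 40.5 in KPG1-PPARαΔ13. KP-PPARαΔ13 tumors were above all KP and all KPG1-PPARαΔ13 tumors, in each case by a narrow gap. The log2 fold changes were 0.93 ± 0.428 over KP (edgeR, adjusted p = 0.446), or 0.51 without KP replicate 2, and -0.61 ± 0.426 for KPG1-PPARαΔ13 over KP-PPARαΔ13 (edgeR, adjusted p = 0.636), which became 0.84 and -0.52 without KP-PPARαΔ13 replicate 1. *Cx3cl1*, or fractalkine, the ligand of Cx3cr1, was at 108.6, 37.1 and 55.5 CPM in KP, 110.9, 59.0 and 111.5 in KP-PPARαΔ13, 93.4, 139.4 and 86.3 in KPG1 and 31.6, 61.1 and 63.9 in KPG1-PPARαΔ13. The groups separated in the floxed genotype, where doxycycline tumors were all lower, with a log2 fold change of -1.03 ± 0.417 (edgeR, adjusted p = 0.435). The effect in KPG1 minus that in KP was -1.51 ± 0.588 (edgeR interaction, adjusted p = 0.386), or -1.37 without KP-PPARαΔ13 replicate 1.

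The CC ligands were the lowest members in raw signal. *Ccl2* was at 0.0682 to 1.14 CPM, which is 2 to 34 counts in a tumor, and its groups overlapped in all comparisons. *Ccl20* was at 1.03, 0 and 2.12 CPM in KP, 3.43, 4.16 and 2.04 in KP-PPARαΔ13, 1.12, 5.95 and 0.958 in KPG1 and 0.648, 0.384 and 1.97 in KPG1-PPARαΔ13. The 2 doxycycline groups were the only pair compared that did not overlap, with a log2 fold change of -1.68 ± 1.17 for KPG1-PPARαΔ13 over KP-PPARαΔ13 (edgeR, adjusted p = 0.635). It was -2.63 without KPG1-PPARαΔ13 replicate 3, -1.29 without KPG1-PPARαΔ13 replicate 2 and -1.63 without KP-PPARαΔ13 replicate 1. The 0 of *Ccl20* in KP replicate 2 allows up to 3 counts, or 0.091 CPM, for counting error only.

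The first comparison asked what the doxycycline diet with the vector did in Slc2a1 wild-type tumors. In KP-PPARαΔ13 against KP, 9 of the 10 chemokines had a positive log2 fold change and *Cxcl15* a negative one, with a median of 0.95 against -0.01 over all genes tested. Of the members, 0 passed an adjusted p of 0.05 with edgeR (0.00605% of all genes did), 2 had an unadjusted p under 0.05 (11.4% of all genes), 3 did not overlap between the groups (13.3% of all genes) and 1, *Cxcl1*, passed with DESeq2 (2.31% of all genes). The 3 without overlap were *Cxcl1*, *Cxcl5* and *Cxcl16*, all higher on doxycycline. Without KP replicate 2, which was the lowest tumor for 4 members, the direction was positive for 8, and without KP-PPARαΔ13 replicate 1 for 9, with a median of 1.00. Several marker lists moved with this comparison, fibroblast and mesothelial markers most by their median. Neutrophil (5 of 6), epithelial (5 of 6) and endothelial markers (6 of 7) were also mostly higher, with medians of 0.79, 0.44 and 0.14. These medians were 0.84, 0.32 and 0.54 without KP-PPARαΔ13 replicate 1. Leukocyte markers were lower in 4 of 6 (median -0.18) with that tumor and higher in 5 of 6 (median 0.14) without it. Alveolar type 2 (7 of 8) and club and airway markers (4 of 5) were mostly lower. The 7 fibroblast markers summed to 114.9 to 348.0 CPM in KP and 336.7 to 569.9 in KP-PPARαΔ13, with overlap. Their median log2 fold change was 1.15 (0.72 without KP-PPARαΔ13 replicate 1). Of these 7, 3 had an unadjusted p under 0.05 (11.4% of all genes), all higher, while DESeq2 called 1 and edgeR 0. The 4 mesothelial markers summed to 2.94 to 43.1 CPM in KP and 158.8 to 294.6 in KP-PPARαΔ13, without overlap. Nearly all of this sum was *Msln* (2.37 to 294.3 CPM over the 12 tumors), since *Wt1*, a defining marker, was at 0 to 0.226 CPM and *Upk3b* and *Lrrn4* stayed at or below 2.39 and 0.936 CPM. Their part in the member values was not tested.

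In the floxed genotype the direction was mostly the other way. In KPG1-PPARαΔ13 against KPG1, 8 chemokines had a negative log2 fold change and 2, *Cxcl14* and *Cxcl16*, a positive one, with a median of -1.06 against 0.02 over all genes. With edgeR 0 passed (0.00605% of all genes), 3 had an unadjusted p under 0.05 (10.8%), 4 did not overlap (20.6%) and 1, *Cxcl15*, passed with DESeq2 (1.25%). Those without overlap, all lower on doxycycline, were *Cxcl5*, *Cxcl12*, *Cxcl15* and *Cx3cl1*. Alveolar type 2 markers were lower in 8 of 8 (median -0.89), 6 of them without overlap (20.6% of all genes). Endothelial markers were lower in 7 of 7 (median -0.68). Leukocyte (6 of 6, median 0.29) and club and airway markers (4 of 5, median 0.86) were higher. Their part in the member values was not tested.

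The difference between the 2 diet effects was negative for all 10 members, with a median of -1.59 against 0.03 over all genes. With edgeR 0 members passed, as did 0.0% of all genes, 3 had an unadjusted p under 0.05 (11.8% of all genes), and DESeq2 called 2, *Cxcl1* and *Cxcl5* (1.78%). This difference is built from the same tumors as the 2 comparisons before it. It was again negative for all 10 members without KP-PPARαΔ13 replicate 1, with a median of -1.76. The plot of log2 fold changes shows both diet effects and their difference side by side.

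On the regular diet the floxed and wild-type tumors overlapped for every member. In KPG1 against KP, 5 members had a positive and 5 a negative log2 fold change, 0 passed with edgeR (0.0363% of all genes), 1 had an unadjusted p under 0.05 (6.23%), 0 were free of overlap (9.95%) and 0 passed with DESeq2 (0.323%). Without KP replicate 2 the split was again 5 and 5. Some members no longer overlapped there, but 3 tumors against 2 separate more easily and the share over all genes was not counted. On doxycycline all 10 were lower in the floxed tumors. In KPG1-PPARαΔ13 against KP-PPARαΔ13 the median log2 fold change was -1.43 against 0.01 over all genes, 0 members passed with edgeR (0.0303%), 4 had an unadjusted p under 0.05 (9.69%), 5 did not overlap (17.6%) and DESeq2 called 3 (1.08%), which were *Cxcl1*, *Cxcl2* and *Cxcl5*. *Cxcl16* and *Ccl20* were the others without overlap. Without KP-PPARαΔ13 replicate 1 all 10 members were still lower in the floxed tumors, and the median was -1.55. All 7 fibroblast, 7 endothelial, 7 macrophage and 6 leukocyte markers had a negative log2 fold change, with medians of -1.25, -0.85, -0.85 and -0.83 in this comparison, and -0.67, -1.20, -1.19 and -1.14 without KP-PPARαΔ13 replicate 1, where 1 fibroblast marker turned positive. Of 6 neutrophil markers tested 4 were negative, with a median of -2.22, 3 had an unadjusted p under 0.05 and 3 did not overlap, all lower. With edgeR 0 of these markers passed, and their part in the member values was not tested.

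Averaged over the genotypes, 6 tumors against 6, doxycycline was accompanied by 6 positive and 4 negative log2 fold changes. With edgeR 0 members passed (0.0182% of all genes), 2 had an unadjusted p under 0.05 (10.1%), 0 were free of overlap (0.49%) and DESeq2 called 1, *Cxcl15* (1.74%). Without KP replicate 2 the split was 3 positive and 7 negative, and without KP-PPARαΔ13 replicate 1 it was again 6 and 4. Averaged over the diets, 9 of 10 members were lower in floxed tumors, of which 0 passed with edgeR (0.0484%), 2 had an unadjusted p under 0.05 (4.53%), 0 were free of overlap (0.188%) and 0 passed with DESeq2 (0.237%). Again 9 of 10 were lower in floxed tumors without KP-PPARαΔ13 replicate 1. All 7 comparisons draw on the same 12 tumors and share groups, so their member counts are not independent of each other. Across the 70 tests of a member, edgeR called 0, 17 had an unadjusted p under 0.05, DESeq2 called 8 and limma voom 0.

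**Figure D3:**
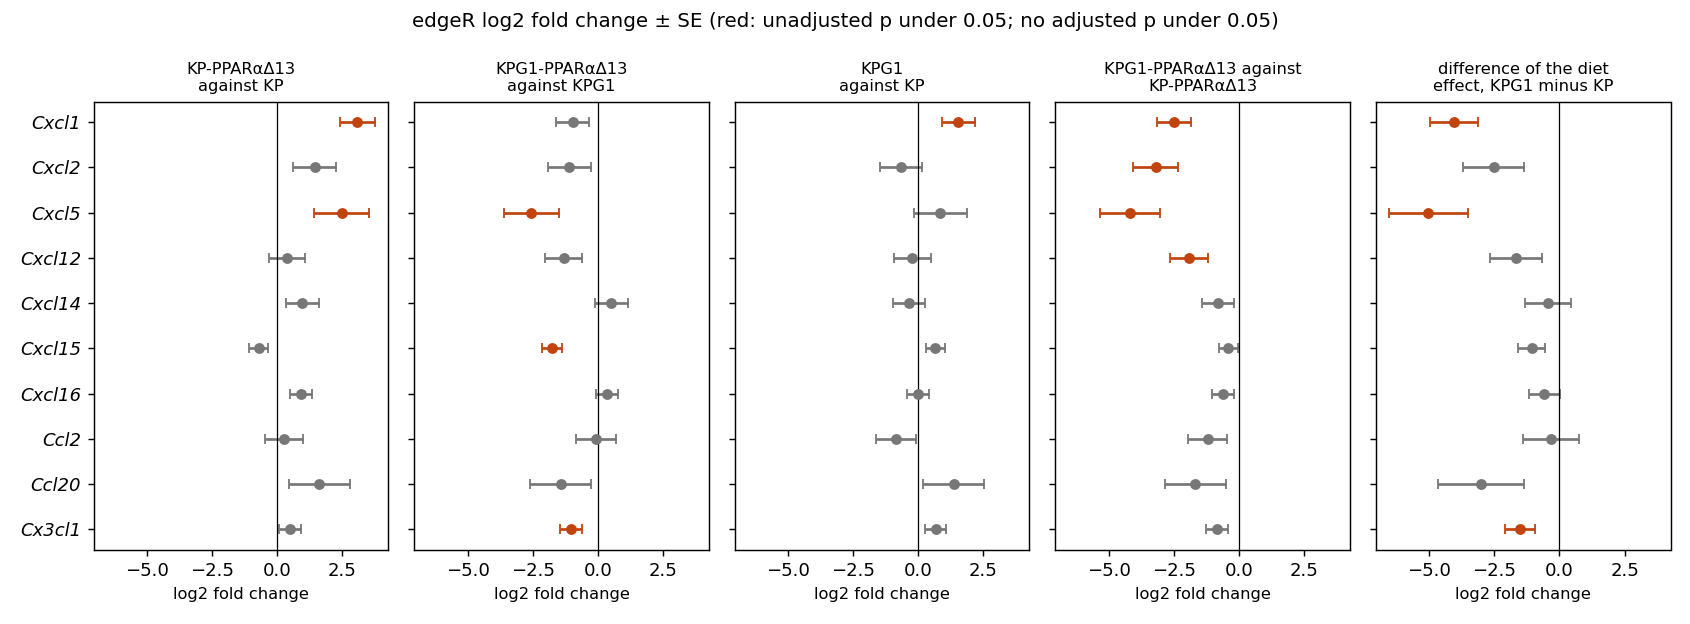
edgeR log2 fold change with SE for each chemokine in the 4 comparisons of groups and in the difference between the 2 diet effects, red where the unadjusted p was under 0.05. Cxcl1 has a log2 fold change of 3.08 and Cxcl5 of 2.48 in the wild-type genotype, and all 10 differences between genotypes lie below 0.

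Between tumors the chemokines tended to vary together. Of the 45 pairs, 41 had a positive Pearson r of log2 CPM over the 12 tumors, with a median of 0.435, and 6 had a Benjamini-Hochberg adjusted permutation p under 0.05. *Cxcl2* went with *Cxcl5* (r = 0.829, permutation p = 0.00051, adjusted p = 0.0162; Spearman's rho = 0.867, adjusted p = 0.0202), and r was 0.792 without the 2 tumors farthest from the median of *Cxcl2*. *Cxcl5* also went with *Ccl20* (r = 0.825, permutation p = 0.00093, adjusted p = 0.0162; rho = 0.846, adjusted p = 0.0202; r = 0.631 without the 2 tumors) and with *Cx3cl1* (r = 0.817, permutation p = 0.00108, adjusted p = 0.0162; rho = 0.713, adjusted p = 0.0895; r = 0.564 without them). The remaining 3 pairs were *Cxcl16* with *Ccl20* (r = 0.839, permutation p = 0.00249, adjusted p = 0.0252; rho = 0.769, adjusted p = 0.0714), *Cxcl2* with *Cxcl16* (r = 0.755, permutation p = 0.0028, adjusted p = 0.0252; rho = 0.699, adjusted p = 0.0895) and *Cxcl2* with *Ccl2* (r = 0.74, permutation p = 0.00617, adjusted p = 0.0463; rho = 0.727, adjusted p = 0.0895). Without the 2 tumors farthest from the median of the first gene, r for these 3 pairs was 0.509, 0.511 and 0.598. *Cxcl1* and *Cxcl2*, neighbours on chromosome 5 whose promoter windows both hold the letters GGAATTTCC, had r = 0.536 over all tumors (permutation p = 0.0707, adjusted p = 0.197; rho = 0.573, adjusted p = 0.173; r = 0.807 without the 2 tumors) and r = 0.058 once each group's mean was taken out.

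With the group means taken out, r was positive in 36 of the 45 pairs, and 0 passed by exact permutation within the groups. *Cxcl16* with *Ccl20* had r = 0.91 there (exact permutation p = 0.0108, adjusted p = 0.243) and *Cxcl2* with *Cxcl5* r = 0.764 (exact permutation p = 0.115, adjusted p = 0.403). With 1 mean value per mouse, n = 9, 1 pair passed, *Cxcl1* with *Ccl20* (r = 0.916, exact permutation p = 0.000546, adjusted p = 0.0246), whereas *Cxcl2* with *Cxcl5* had r = 0.767 (exact permutation p = 0.0163, adjusted p = 0.0813). For the 6 pairs that passed over 12 tumors, r was 0.713 to 0.91 with the group means out, where the test has 1296 arrangements, and 0.71 to 0.782 per mouse. KP replicate 2 was the lowest tumor for *Cxcl2*, *Cxcl5*, *Cxcl16* and *Ccl20*, and r without this tumor alone was not computed.

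**Figure D4:**
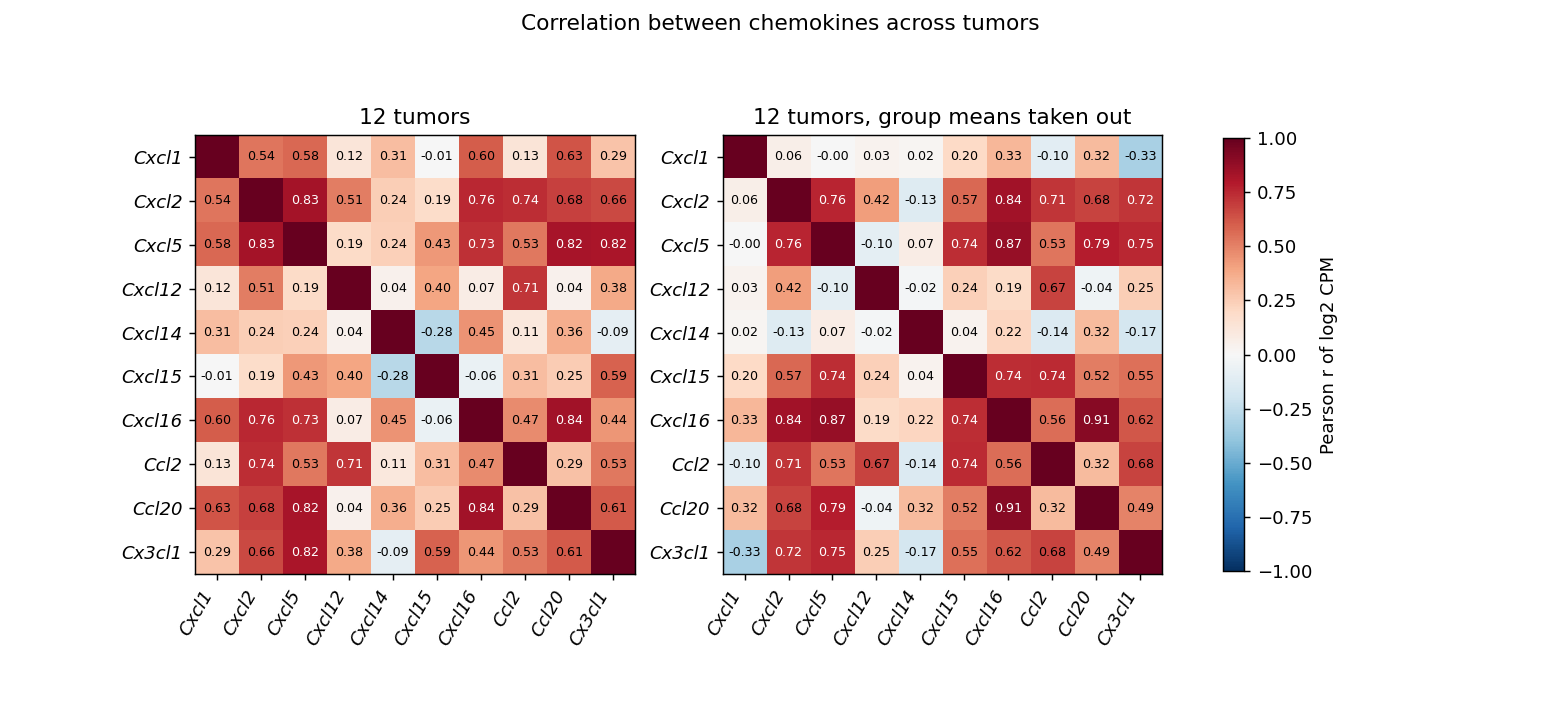
Pearson r of log2 CPM between chemokines over the 12 tumors (left) and after each group's mean was taken out (right), on a scale from -1 to 1. Cxcl2, Cxcl5, Cxcl16 and Ccl20 form a block of positive values in both panels, while Cxcl1 keeps little of its correlation on the right. KP replicate 2 was the lowest tumor for all 4 genes of the block.

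The genes whose pattern over the 12 tumors was most like that of a member, searched among 14109 genes, differed by member. *Cxcl2* was most like *Il1b* (r = 0.977), *Osm* (0.965) and *Il1a* (0.93), which are inflammatory cytokines. *Ccl2* was most like *Cybb* (r = 0.934), *Pilra* (0.927) and *Csf1r* (0.921), which myeloid cells express. *Cxcl12* was most like *Ackr2* (r = 0.95), a decoy receptor of lymphatic endothelium, *Ptprb* (0.937) and *Acvrl1* (0.937), both receptors of endothelial cells. *Cxcl15* was most like *Morn2* (r = 0.922), *Chi3l1* (0.891) and *Etv5* (0.883), the last a transcription factor of alveolar type 2 cells. *Cxcl1* was most like *Cdipt* (r = 0.921), *Rrad* (0.892) and *Cav2* (0.885), and *Cxcl5* like *Malt1* (0.949), *Rhbdd1* (0.925) and *Sdpr* (0.921). *Cxcl16* was most like *Capzb* (r = 0.956), *Wnt7a* (0.951) and *Syt12* (0.948), *Cxcl14* like *Suox* (0.879), *Brap* (0.819) and *Gm10232* (0.818), *Ccl20* like *Hspa4l* (0.967), *Gm13509* (0.927) and *Farp1* (0.925), and *Cx3cl1* like *AU021092* (0.974), *Cp* (0.954) and *C1ra* (0.95). No other member was among the 3 nearest genes of any member.

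Markers of other cell types moved with some of these values. The 6 leukocyte markers summed to 7.15 to 82.1 CPM in KP, 21.5 to 57.9 in KP-PPARαΔ13, 13.2 to 19.3 in KPG1 and 11.8 to 37.6 in KPG1-PPARαΔ13, and the 7 neutrophil markers to 2.55 to 8.32, 5.003 to 14.4, 2.51 to 4.76 and 2.15 to 10.4 CPM in the same order, with *Ly6g* and *Mmp8* under 1 CPM in every tumor. *Cxcr2* made up 9.11 of the 10.4 CPM at the top of KPG1-PPARαΔ13. Its mean was higher there (3.72 CPM) than in KP-PPARαΔ13 (2.48), as was that of *Mmp8* (0.290 against 0.155). The means of *S100a8*, *S100a9*, *Csf3r* and *Retnlg* were lower there. The sum of the 7 macrophage markers was 31.2 to 89.4 CPM over the 12 tumors. *Cxcl2* followed the leukocyte sum (r = 0.813 over 12 tumors, permutation p = 0.00163, adjusted p = 0.0233 over 100 relations of members with marker sums; rho = 0.853, adjusted p = 0.0395; r = 0.686 without the 2 farthest tumors). *Ccl2* followed it as well (r = 0.809, permutation p = 0.00117, adjusted p = 0.0195; rho = 0.874, adjusted p = 0.037; r = 0.834 without the 2 farthest tumors). *Ccl2* also passed with the macrophage sum (r = 0.732, permutation p = 0.00638, adjusted p = 0.0491; rho = 0.692, adjusted p = 0.129; r = 0.493 without the 2 farthest tumors). *Cxcl2* was closer still to the mesothelial sum, which is mostly *Msln* (r = 0.857, permutation p = 0.00038, adjusted p = 0.0127; rho = 0.811, adjusted p = 0.0454; r = 0.716 without the 2 farthest tumors). The part of leukocyte RNA in the values of *Cxcl2* and *Ccl2* was not tested. In bulk RNA, fewer cells of a type and less RNA per cell cannot be told apart.

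The 7 endothelial markers, none of them near 0, summed to 212.0 to 446.4 CPM in KP, 139.7 to 763.6 in KP-PPARαΔ13, 171.6 to 473.4 in KPG1 and 160.3 to 250.3 in KPG1-PPARαΔ13. *Cxcl12* followed this sum (r = 0.877, permutation p = 0.00018, adjusted p = 0.009; rho = 0.783, adjusted p = 0.0567; r = 0.726 without the 2 farthest tumors), and both were highest in KP-PPARαΔ13 replicate 3. *Cxcl15* followed the sum of 8 alveolar type 2 markers (r = 0.812, permutation p = 0.00234, adjusted p = 0.0245; rho = 0.748, adjusted p = 0.0901; r = 0.818 without the 2 farthest tumors), which stood at 47920 to 77170 CPM in KPG1 and 25480 to 40640 in KPG1-PPARαΔ13. *Cxcl16* followed the sum of 6 general epithelial markers (r = 0.886, permutation p = 9e-05, adjusted p = 0.009; rho = 0.811, adjusted p = 0.0454; r = 0.764 without the 2 farthest tumors). The mesothelial sum went with *Cxcl5* (r = 0.83, permutation p = 0.001, adjusted p = 0.0195; rho = 0.811, adjusted p = 0.0454; r = 0.549 without the 2 farthest tumors), *Cxcl16* (r = 0.796, permutation p = 0.00117, adjusted p = 0.0195; rho = 0.713, adjusted p = 0.112; r = 0.625 without them) and *Ccl20* (r = 0.771, permutation p = 0.00245, adjusted p = 0.0245; rho = 0.713, adjusted p = 0.112; r = 0.637 without them). The fibroblast sum went with *Cxcl5* (r = 0.75, permutation p = 0.00433, adjusted p = 0.0361; rho = 0.531, adjusted p = 0.248; r = 0.543 without them). The epithelial sum also went with *Cxcl2* (r = 0.772, permutation p = 0.00335, adjusted p = 0.0305; rho = 0.664, adjusted p = 0.152; r = 0.564 without them) and *Ccl20* (r = 0.793, permutation p = 0.00196, adjusted p = 0.0245; rho = 0.636, adjusted p = 0.16; r = 0.616 without them). These are the 13 of 100 relations that passed over 12 tumors, and 0 passed once group means were taken out. That test has 1296 arrangements, too few for 1 relation alone to pass after adjustment over 100, although several together could. The smallest exact permutation p within the groups was 0.0054 (*Cxcl16* with epithelial markers, adjusted p = 0.27). For the 13 relations, r was then 0.483 (*Cxcl5* with fibroblast) to 0.888 (*Cxcl12* with endothelial markers). KP replicate 2, the lowest tumor for *Cxcl2*, *Cxcl5*, *Cxcl16* and *Ccl20*, also had the lowest leukocyte, mesothelial, fibroblast and epithelial sums. Its part in these relations was not tested.

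With 1 value per mouse, n = 9, 6 relations passed, each at an adjusted p of 0.0492 by exact permutation. They were *Cxcl2* with mesothelial (r = 0.882), *Cxcl5* with fibroblast (r = 0.874), *Cxcl12* with endothelial (r = 0.88), *Cxcl16* with epithelial (r = 0.876), *Ccl2* with leukocyte (r = 0.882) and *Ccl20* with fibroblast markers (r = 0.902), the last of which had r = 0.656 over 12 tumors (permutation p = 0.0164, adjusted p = 0.0914). *Cxcl2* with leukocyte (r = 0.706, exact permutation adjusted p = 0.191) and *Cxcl15* with alveolar type 2 markers (r = 0.821, exact permutation adjusted p = 0.0934) did not pass per mouse. How far the cell makeup accounts for the levels was not tested. These relations were computed after the values of the members had been seen.

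**Figure D5:**
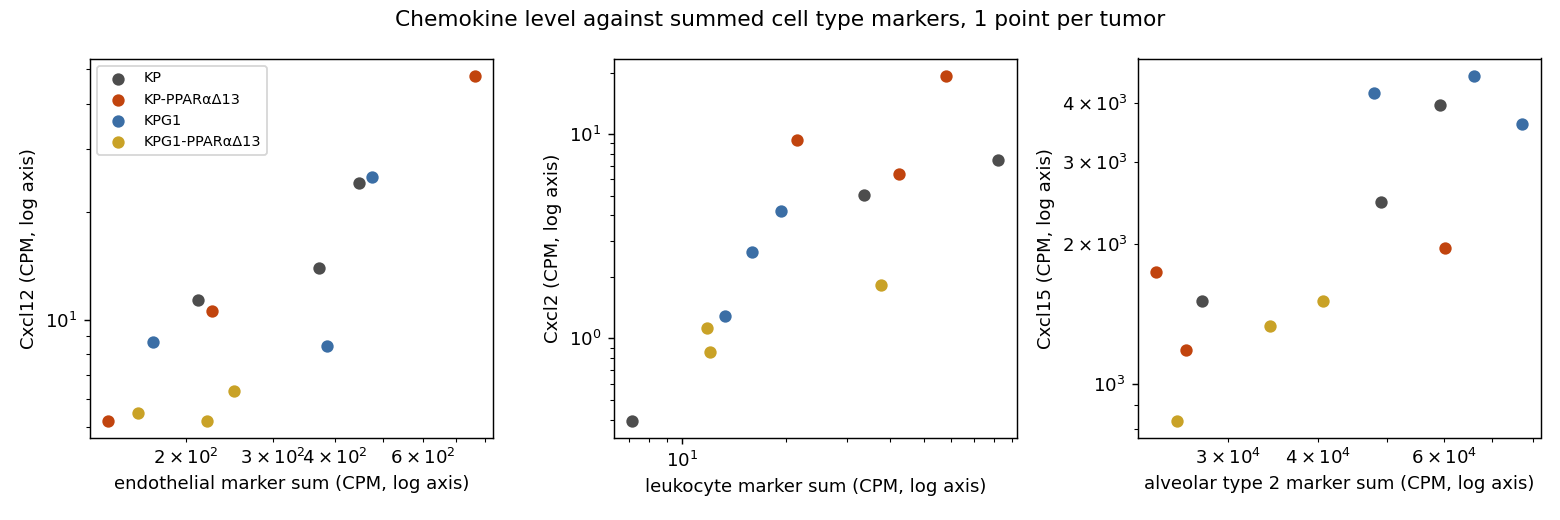
CPM of Cxcl12, Cxcl2 and Cxcl15 (log axes) against the summed CPM of endothelial, leukocyte and alveolar type 2 markers, 1 point per tumor colored by group. Each chemokine is higher in tumors with a higher marker sum (r = 0.877, 0.813 and 0.812); with 1 value per mouse the first relation passed the adjusted threshold and the other two did not.

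*Ackr3* and *Cxcr4* had the highest mean among the receptors of the members. Of 22 chemokine receptor genes 10 were tested, and 0 passed with edgeR or DESeq2 in any of the 7 comparisons, although 1 to 3 had an unadjusted p under 0.05 in 5 of them, where 4.53% to 11.8% of all genes did. *Cxcr2*, the receptor of Cxcl1, Cxcl2 and Cxcl5, averaged 2.18 CPM over the 12 tumors, and *Cxcr1* 0.0369 CPM. The Cxcl12 receptors *Cxcr4* and *Ackr3* averaged 11.7 and 14.4 CPM. *Ccr2*, *Cx3cr1*, *Ccr6* and *Cxcr6*, which bind Ccl2, Cx3cl1, Ccl20 and Cxcl16, averaged 2.37, 1.67, 0.211 and 0.140 CPM. The other receptors with the highest mean were *Ackr2* (4.11 CPM) and *Ccr7* (3.68).

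Of 28 other chemokine ligands 16 were tested and 0 passed with edgeR or DESeq2 in any comparison. The highest were *Pf4* (mean of 60.8 CPM), *Cxcl17* (38.7), *Ccl6* (13.7) and *Cxcl3* (11.3). In KPG1-PPARαΔ13 against KP-PPARαΔ13 their median log2 fold change was -1.50, next to -1.43 for the members, with 4 of 16 at an unadjusted p under 0.05, all lower (9.69% of all genes). Their directions were mixed, however. Of the 16, 11 were lower and 5 higher, and of those without overlap 2 were lower and 2 higher (17.6% of all genes did not overlap). *Cxcl3*, the Cxcr2 ligand among them, was at 2.56 to 4.86 CPM in KPG1-PPARαΔ13 and at 6.75 to 26.9 CPM in KP-PPARαΔ13 (log2 fold change -2.51 ± 0.82, edgeR, adjusted p = 0.476, and -2.31 without KP-PPARαΔ13 replicate 1).

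Genes of the NF-κB pathway and inflammatory cytokines, background regulators of these ligands, were mostly highest in KP-PPARαΔ13. All 23 were tested and 0 passed with edgeR in any comparison. In KP-PPARαΔ13 against KP, 20 of 23 had a positive log2 fold change, with a median of 0.77, and 8 had an unadjusted p under 0.05, all higher (11.4% of all genes). In KPG1-PPARαΔ13 against KPG1, 19 of 23 had a negative one, with a median of -0.26, and 1 an unadjusted p under 0.05 (10.8%). In KPG1-PPARαΔ13 against KP-PPARαΔ13, 22 of 23 had a negative one, with a median of -1.04, and 9 an unadjusted p under 0.05, all lower (9.69%). Without KP-PPARαΔ13 replicate 1 the first comparison had 21 positive values with a median of 0.88, and the last 23 negative ones with a median of -0.94. DESeq2 called 4 of the 23 in this last comparison (1.08% of all genes), *Tnf* (adjusted p = 0.00222), *Nfkbiz* (0.00702), *Il1b* (0.0233) and *Tnfaip3* (0.0435), which are named here after their values were seen. Its other calls were *Tnf*, with an adjusted p of 0.0385 for KP-PPARαΔ13 over KP (2.31% of all genes), and *Nfkbiz* in the difference between the diet effects (adjusted p = 0.0483; 1.78%). *Tnf* was at 10.7 to 30.6 CPM in KP-PPARαΔ13, 0.515 to 3.73 in KP, 0.562 to 4.47 in KPG1 and 0.443 to 2.37 in KPG1-PPARαΔ13. The highest of the list were *Tnfrsf1a* (138.6 CPM on average), *Nfkb1* (87.0), *Il1r1* (77.8) and *Rela* (76.5).

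Of the 6 proteases that cut or release chemokines, all were tested and 0 passed with edgeR. *Dpp4*, which trims Cxcl12, averaged 383.8 CPM, and *Adam10* and *Adam17*, which shed Cxcl16 and Cx3cl1, 213.2 and 130.1 CPM, ahead of *Mmp12* at 9.35 CPM. *Adam10* was at 223.7 to 254.4 CPM in KP-PPARαΔ13 and 144.1 to 192.4 in KP (log2 fold change 0.52 ± 0.187, edgeR, adjusted p = 0.357, and 0.45 without KP-PPARαΔ13 replicate 1). *Mmp9*, named after its values were seen, was at 1.52 to 7.67 CPM in KP-PPARαΔ13 against 0.0606 to 0.685 in KP (3.37 ± 0.826, edgeR, adjusted p = 0.289; DESeq2 adjusted p = 0.00635), or 3.60 without KP-PPARαΔ13 replicate 1. DESeq2 called *Mmp9* as lower in KPG1-PPARαΔ13 than in KP-PPARαΔ13 (adjusted p = 0.00063) and in floxed tumors over both diets (adjusted p = 0.0111).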

How the data were processed

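RNA of the CD45-negative cells, left after magnetic beads against CD45 had removed immune cells, was sequenced with the TruSeq stranded mRNA kit. The authors trimmed the reads, mapped them to mm10 with HISAT2 and deposited raw counts per gene (per the labels, with bcl2fastq 2.17, cutadapt 1.4.2 and featureCounts 1.4.4); the annotation and strand setting are not given in the sources used here. Columns that matched no sample numbered 0, and the log2 values deposited beside the counts were not used.

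From the counts, edgeR 4.0.16 (R 4.3.3; TMM, filterByExpr, glmQLFit and glmQLFTest, all 12 tumors in one fit) tested 16527 genes, two-sided, with Benjamini-Hochberg adjustment at 0.05. Standard errors are the log2 fold change over the square root of F. Correlations used log2 CPM with a prior count of 2 and 100000 permutations, adjusted over 45 pairs, and exon lengths came from GENCODE M21. Scripts were tested on simulated data. Alternatives were DESeq2 1.42.0, limma 3.58.1 voom, other normalization, filters, covariates and samples.

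All 10 members are named in the text, with single tests where the unadjusted p was under 0.05 or the groups did not overlap. The interaction of *Cxcl15* (edgeR, unadjusted p = 0.0651) is given outside this rule. From each list the receptors of members, passing genes and up to 4 of the highest genes are named, and genes outside these rules were picked with their values in view. The members and lists were chosen with earlier results of these data known. Replicates are separate tumors, some from one mouse, so p-values measure the spread between tumors.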

Additional observations from a re-analysis of the deposited data

Results flagged for a closer look

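*Cxcl5* was singled out because all 3 doxycycline tumors were above all 3 regular-diet tumors in the Slc2a1 wild-type genotype and below all 3 in the floxed genotype. The interaction tests use these same values, so their p-values are not independent of that choice. The effect in KPG1 minus that in KP was a log2 fold change of -5.03 ± 1.51 (SE), with an adjusted p of 0.34 by edgeR's interaction test and 0.0173 by DESeq2. It was -3.76 without KP-PPARαΔ13 replicate 1 and -5.52 without KP replicate 3, the lowest and highest sizes when a tumor was left out. Groups of 3 tumors are too small for a test of outlying tumors.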

How the results depend on the processing

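Of 21 alternatives, DESeq2 was the only one that changed how many members passed. It called 1 member in KP-PPARαΔ13 against KP, 1 in KPG1-PPARαΔ13 against KPG1, 3 in KPG1-PPARαΔ13 against KP-PPARαΔ13, 2 in the difference between the diet effects and 1 in doxycycline averaged over genotypes, where edgeR called 0. Every other alternative, limma voom, sex as a covariate, tumors of the same mouse summed and each of the 12 left-out tumors included, called 0. Among 21 single changes of members given in the text, 423 of 431 alternative values kept their direction and stayed above the threshold, and 8, all with DESeq2, kept their direction and passed it. The difference between the genotypes for *Cxcl15*, also given in the text, was not among these. Correlated pairs numbered 6, against 0 with group means taken out and 1 with 1 value per mouse. In the level order 2 neighbours were apart in every tumor by FPKM and 2 by CPM, but with CPM *Cx3cl1* over *Cxcl16* took the place of *Cxcl16* over *Cxcl1*. With the replicate number as a replicate block, 0 members passed in each comparison. The numbers share only a name, since tumors with the same number had a median correlation of -0.013 and 2 of 18 such pairs exceeded 0.1. Over all genes, edgeR called 0 to 8 per comparison and DESeq2 39 to 372, and the other alternatives 0 to 13; why the tools differ was not tested. Only the 11 changes of members with a mean of at least 20 TPM could be refitted under that filter. At 2 to 34 counts per tumor *Ccl2* is also limited by depth.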
